A study of Mus musculus with 12 samples.

Results

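Integrins are cell-surface adhesion receptors made of an alpha and a beta chain, and the genes described here encode the chains that T cells use for adhesion and homing. The 9 members were the rows of a deposited gene count table whose symbol was on a fixed list: Itga4, Itga6, Itgae, Itgal and Itgav for the alpha chains and Itgb1, Itgb2, Itgb3 and Itgb7 for the beta chains. All 9 were found among the 16353 genes of the table, and all 9 passed the filter on low counts, which left 12499 genes for testing.

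Messenger RNA had been sequenced from mouse CD8 T cells carrying the KB5 T cell receptor, a transgenic receptor that reacts to H2b antigens of C57BL/6 mice. The cells were sorted from spleen with antibodies to that receptor and to CD8, to 95% purity per the labels, and the strain background was CBA/J throughout. Each of the 4 groups had 3 libraries, 12 in all. The naive group was untreated, and no time is given for it. For the activated group, mice had been injected intravenously with 10 M (M for mega) C57BL/6 splenocytes, a donor-specific transfusion, and with no other agent. The tolerized group had the same transfusion together with 0.5 mg of intraperitoneal anti-CD154, which binds CD40 ligand and blocks its costimulation. The inflamed group had the transfusion, the same dose of anti-CD154 and in addition 100 µg of LPS, an inflammatory component of bacterial membranes. Spleens of treated mice were taken at 12 h. No group received anti-CD154 or LPS without splenocytes, and all cells shared 1 receptor specificity. Nothing in the labels states that the 3 libraries of a group represent different animals; a p-value here therefore reflects the spread among these samples alone, which may be technical.

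An alpha chain reaches the cell surface only with a beta partner, and the pair sets what the receptor binds. Itgal pairs with Itgb2 to form LFA-1, which binds ICAM molecules on antigen-presenting cells and endothelium. Itga4 pairs with Itgb7 to form the gut-homing receptor for MAdCAM-1, or with Itgb1 to form VLA-4, a receptor for VCAM-1 and fibronectin. Itgae, known as CD103, pairs with Itgb7 and binds E-cadherin on epithelial cells, and Itga6 with Itgb1 binds laminins. Itgav pairs with several beta chains, Itgb1 and Itgb3 among them, in receptors for vitronectin, fibronectin and latent TGF-β. Surface protein was not measured here.

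Promoter windows are shown for the members present in RefSeq's promoter table of GRCm38.p6, which held 4 of the 9. Itga4 and Itgb7 fell in all 3 antigen-exposed groups, and Itgb1 and Itgav rose in activated and tolerized cells. The table held no window for Itga6, Itgae and Itgb3, which also fell, so the windows are no comparison of fallen with risen chains. Each window is the 250 bases before an annotated transcript start, 5′ to 3′ on the gene's strand. For Itgav and Itgb7 that start lies inside the gene's outermost coordinates. Capitals mark CACCC or its reverse complement GGGTG, letters recognised by Krüppel-like factors. The windows lie at chr2:79255176-79255425 (plus strand) for Itga4, chr15:102231936-102232185 (minus strand) for Itgb7, chr8:128685404-128685653 (plus strand) for Itgb1 and chr2:83724147-83724396 (plus strand) for Itgav.
Itga4: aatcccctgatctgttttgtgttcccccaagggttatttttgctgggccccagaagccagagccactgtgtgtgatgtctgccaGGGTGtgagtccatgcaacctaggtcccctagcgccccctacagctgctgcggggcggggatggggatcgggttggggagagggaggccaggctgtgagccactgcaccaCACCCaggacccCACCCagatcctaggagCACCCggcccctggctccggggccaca
Itgb7: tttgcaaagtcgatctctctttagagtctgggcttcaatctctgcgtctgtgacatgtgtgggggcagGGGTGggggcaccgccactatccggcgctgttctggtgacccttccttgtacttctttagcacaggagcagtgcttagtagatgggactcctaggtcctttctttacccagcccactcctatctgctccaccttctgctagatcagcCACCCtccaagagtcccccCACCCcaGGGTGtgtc
Itgb1: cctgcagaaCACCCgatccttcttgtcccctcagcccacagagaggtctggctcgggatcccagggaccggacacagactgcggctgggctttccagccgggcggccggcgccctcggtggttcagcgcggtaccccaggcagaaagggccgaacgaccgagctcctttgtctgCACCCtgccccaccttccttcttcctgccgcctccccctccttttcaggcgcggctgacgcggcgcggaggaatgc
Itgav: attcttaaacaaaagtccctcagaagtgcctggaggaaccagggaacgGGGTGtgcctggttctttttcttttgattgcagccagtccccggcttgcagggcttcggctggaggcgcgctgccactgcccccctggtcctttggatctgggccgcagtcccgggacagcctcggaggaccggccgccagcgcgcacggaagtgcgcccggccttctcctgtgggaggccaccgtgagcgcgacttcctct
The windows of Itga4 and Itgb7 held 4 such matches each, that of Itgb1 held 2 and that of Itgav 1. Among 32851 promoter windows of the same length, 52.0% held at least 1 match and 2.14% held 4 or more, with a median of 1. The letters TGTGGT of RUNX factors, read on both strands like every motif here, occurred in the Itga4 window and in none of the other 3, against 14.0% of all windows. The GC-box letters GGGCGG occurred in the Itga4 and Itgb1 windows, against 32.7% of all windows, and the ETS core GGAA in all 4 against 93.4%. A single CACCC match, in the Itga4 window, overlapped a match of another motif searched. These matches describe letters and not binding.

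The libraries held 29.3 to 84.5 M reads, and the scarcest member, Itgb3, had 34 to 1282 reads per library. Levels are given as CPM, reads per 1 M reads of a library, scaled between libraries by factors of 0.897 to 1.22, so each is relative to the other transcripts of its library. CD8 T cell markers were present throughout, with 7 genes summing to 4348 to 5371 CPM in naive, 2161 to 3324 in activated, 2462 to 3091 in tolerized and 3251 to 3495 CPM in inflamed libraries. Against naive 7, 6 and 4 of the 7 were called lower in these 3 groups, where 35.3%, 35.9% and 35.5% of all tested genes were called lower. The part of this difference in the member changes was not tested. The summed CPM of 13 macrophage markers was 791 to 1985 in naive, 62.9 to 715 in activated, 51.7 to 150 in tolerized and 18.6 to 599 in inflamed libraries. A list of 7 B cell markers summed to 347 to 438 CPM in naive libraries and to 76.7 to 165 CPM in the other 9. Of 4 CD4 and regulatory T cell markers, Foxp3, a regulatory T cell factor, stood at 31.8 to 49.9 CPM in all 12. The others varied more: Cd4 was 13.7 to 24.0 CPM in naive libraries and 3.15 to 6.66 CPM in the other 9. Ikzf2 ranged from 0.979 to 41.9 CPM and Cd40lg from 0.783 to 4.25 CPM over the 12. Erythroid markers (8 genes) summed to 957 to 2307 CPM in naive and 19.2 to 293 CPM in the other libraries, neutrophil markers to 1.07 to 19.4 CPM outside the inflamed group and 10.6 to 193 CPM within it, and dendritic and NK cell markers to at most 8.29 and 2.69 CPM. The sum of 6 resting T cell genes (Il7r, Ccr7, Tcf7, Lef1, Klf2 and S1pr1) was 2729 to 3271 CPM in naive libraries and 989 to 1778 CPM in the others, where it was highest within its group in activated 3, tolerized 3 and inflamed 2. In bulk libraries fewer cells of a type and less RNA per cell cannot be told apart.

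Antigen-exposed cells differed from naive cells in most integrin chains, and the chains did not move in 1 direction. Itga4, Itga6, Itgae, Itgb3 and Itgb7 fell in activated, tolerized and inflamed cells, by 2.75-fold to 33.1-fold in group means, while Itgb1 rose in all 3, by 1.78-fold to 2.13-fold. Itgal and Itgb2, the chains of LFA-1, stayed within 1.31-fold of the naive mean in every group. A gene was called where the Benjamini-Hochberg adjusted p of limma over all tested genes was under 0.05, on log2(CPM + 1), which understates the change of low genes. Between activated and naive cells 8 of 9 members were called, 2 higher and 6 lower, where 70.7% of all tested genes were called, 35.3% higher and 35.3% lower. Between tolerized and naive cells 8 were called, 3 higher and 5 lower, against 73.3% of all genes, 37.4% higher and 35.9% lower. Between inflamed and naive cells 6 were called, 1 higher and 5 lower, against 72.4% of all genes, 36.9% higher and 35.5% lower. The shares of members called in either direction are near these backgrounds and are no result about the members. By direction, 6, 5 and 5 of 9 were called lower, beside 35.3%, 35.9% and 35.5% of all genes. This difference was not tested, and the direction and size of each member are given below. How many of all tested genes separated fully from the naive libraries was not counted. Statements below that libraries do not overlap therefore describe values of single genes and mark nothing particular to the members. These 3 comparisons share the naive libraries, so their values are set side by side and are not independent.

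The median log2 change of the 5 alpha chains was -1.84 in activated, -1.72 in tolerized and -2.18 in inflamed cells against naive, and that of the 4 beta chains was -1.14, -1.07 and -1.26. Over all tested genes the same medians were -0.04, -0.01 and -0.01.

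**Figure D1:**
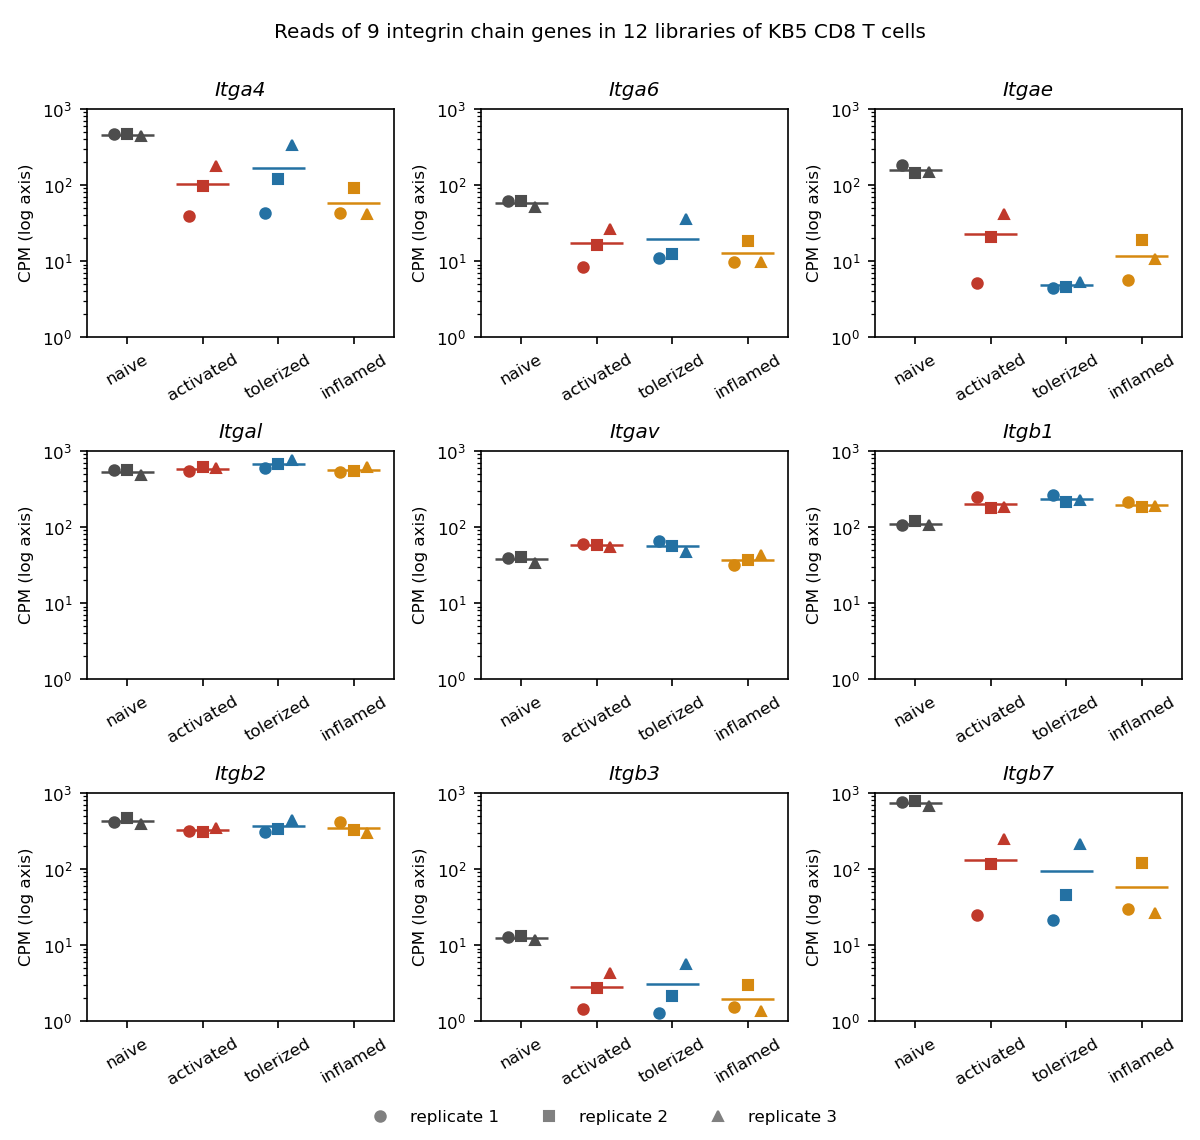
CPM on a log axis of each of the 9 integrin chain genes in the 12 libraries; points are libraries, their shape gives the replicate number, and lines are group means. Itga4, Itga6, Itgae, Itgb3 and Itgb7 lie lower in all 9 antigen-exposed libraries than in any naive library, Itgb1 lies higher in all 9, and Itgal and Itgb2 stay near their naive level. The share of all genes separated in this way was not counted.

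Itgb7 (chromosome 15, 102215994-102233405), the beta chain of both gut-homing and epithelium-binding receptors, was the most abundant member in naive cells, at 748, 774 and 663 CPM. It stood at 24.5, 117 and 246 CPM in activated libraries 1 to 3, at 21.4, 45.6 and 211 CPM in tolerized libraries, and at 29.8, 119 and 26.1 CPM in inflamed libraries. All 9 antigen-exposed libraries lay below the naive ones, and within each antigen-exposed group the highest library held 4.56 to 10.0 times the lowest. Itgb7 fell in all 3, with log2 changes of -3.01 ± 0.93 (SE, n = 3 per group) in activated cells (limma, adjusted p = 0.014), -3.59 ± 0.93 in tolerized cells (adjusted p = 0.00518) and -3.97 ± 0.93 in inflamed cells (adjusted p = 0.00284). The call in activated cells rested on activated 1: without that library the change was -2.06 (limma, adjusted p = 0.0612). Leaving out activated 3, tolerized 3 or inflamed 2, the group's highest libraries, gave -3.73, -4.49 and -4.65 for the respective groups, and leaving out tolerized 1 gave -2.86.

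Itgae (chromosome 11, 73090505-73147449) encodes the CD103 chain that joins Itgb7. Its level was 184, 145 and 147 CPM in naive cells, 5.11, 20.9 and 41.5 CPM in activated cells, 4.48, 4.58 and 5.33 CPM in tolerized cells, and 5.66, 18.7 and 10.7 CPM in inflamed cells. The 3 tolerized libraries lay within 1.19-fold of each other, whereas the activated libraries spread over 8.11-fold and the inflamed over 3.30-fold. The log2 change of Itgae was -3.15 ± 0.58 (SE) in activated cells (limma, adjusted p = 0.000738), -4.78 ± 0.58 in tolerized cells (adjusted p = 3.44e-05) and -3.79 ± 0.58 in inflamed cells (adjusted p = 0.000184). In group means this was 7.06-fold, 33.1-fold and 13.6-fold lower than naive. Without activated 1 the change in activated cells was -2.35, and without activated 3 it was -3.78, both still called.

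Itga4 (chromosome 2, 79255426-79333114), the alpha chain shared by the gut-homing receptor and VLA-4, stood at 470, 463 and 440 CPM in naive cells. In activated libraries it was 39.5, 97.9 and 175 CPM, in tolerized libraries 43.2, 120 and 337 CPM, and in inflamed libraries 42.4, 90.02 and 42.0 CPM. Tolerized 3, at 337 CPM, came nearest to the naive libraries, and none of the 9 reached them. Itga4 changed by -2.36 ± 0.68 (SE, log2) in activated cells (limma, adjusted p = 0.0095), by -1.91 ± 0.68 in tolerized cells (adjusted p = 0.0253) and by -3.05 ± 0.68 in inflamed cells (adjusted p = 0.00206). In tolerized cells the call was lost without any 1 of the 3 naive libraries, without tolerized 1 and without tolerized 2, with changes of -1.17 to -1.94 and adjusted p of 0.054 to 0.11, while without tolerized 3 the change was -2.65 (adjusted p = 0.00253). In activated cells it was -1.77 without activated 1 (adjusted p = 0.0444), and without activated 1 and inflamed 1 together the call was lost, at -1.76 (adjusted p = 0.0539). Annotated exons of Itga4 share 1124 bases with exons of Cerkl on the opposite strand, which was listed at 0.900 to 13.4 CPM, and with no strand stated for the counting the reads there cannot be told apart.

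Itga6 (chromosome 2, 71786886-71858427), the alpha chain of a laminin receptor, fell in all 3 antigen-exposed groups. It was 61.2, 62.3 and 52.0 CPM in naive cells, 8.43, 16.4 and 26.5 CPM in activated, 10.9, 12.3 and 35.8 CPM in tolerized and 9.63, 18.4 and 9.81 CPM in inflamed cells. No antigen-exposed library overlapped the naive range. The log2 changes from naive were -1.84 ± 0.46 (SE) in activated (limma, adjusted p = 0.00461), -1.72 ± 0.46 in tolerized (adjusted p = 0.00633) and -2.18 ± 0.46 in inflamed cells (adjusted p = 0.00152), all called.

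Itgb3 (chromosome 11, 104608000-104670476), a partner of Itgav that is best known from platelets, was the scarcest member, with 12.6, 13.4 and 11.7 CPM in naive cells. It was 1.44, 2.77 and 4.33 CPM in activated, 1.29, 2.14 and 5.71 CPM in tolerized and 1.56, 2.999 and 1.37 CPM in inflamed cells, below every naive library in all 9. Against naive, Itgb3 changed by -1.89 ± 0.39 (SE, log2) in activated (limma, adjusted p = 0.00145), -1.90 ± 0.39 in tolerized (adjusted p = 0.00125) and -2.23 ± 0.39 in inflamed cells (adjusted p = 0.000427). The 7 platelet markers in the table summed to 2.95 to 3.59 CPM in naive libraries and to 0.228 to 1.03 CPM in the others, 6 of them stayed under 1 CPM in every library, and the platelet chemokine gene Pf4 was at 0 to 0.122 CPM. Itga2b, the platelet partner of Itgb3 and not among these markers, was 4.02 to 4.72 CPM in naive and 1.21 to 2.57 CPM in the other libraries, and was called lower in all 3 groups (limma, adjusted p = 0.00138, 0.000291 and 0.000492). The part of platelets in the change of Itgb3 was not tested.

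Within each antigen-exposed group, the same library was the highest for all 5 of these chains. Activated 3 and inflamed 2 were the highest of their groups for Itga4, Itga6, Itgae, Itgb3 and Itgb7, and these are the libraries with the most resting T cell transcripts in their groups, at 1778 and 1388 CPM. Tolerized 3, at 1323 CPM, was the highest of its group as well, but its Itgae level of 5.33 CPM was hardly above the 4.48 and 4.58 CPM of tolerized 1 and 2, while its Itgb7 level was 9.87 times that of tolerized 1. Activated 3 and tolerized 3 therefore had similar Itgb7, at 246 and 211 CPM, and 41.5 against 5.33 CPM of Itgae. Leaving out activated 3, tolerized 3 and inflamed 2 together kept all 5 chains called lower than naive in each of the 3 comparisons. As these were the highest libraries of their groups for these chains, their omission could only lower the group means. It therefore says nothing on resting transcripts, whose part in these differences was not tested.

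**Figure D2:**
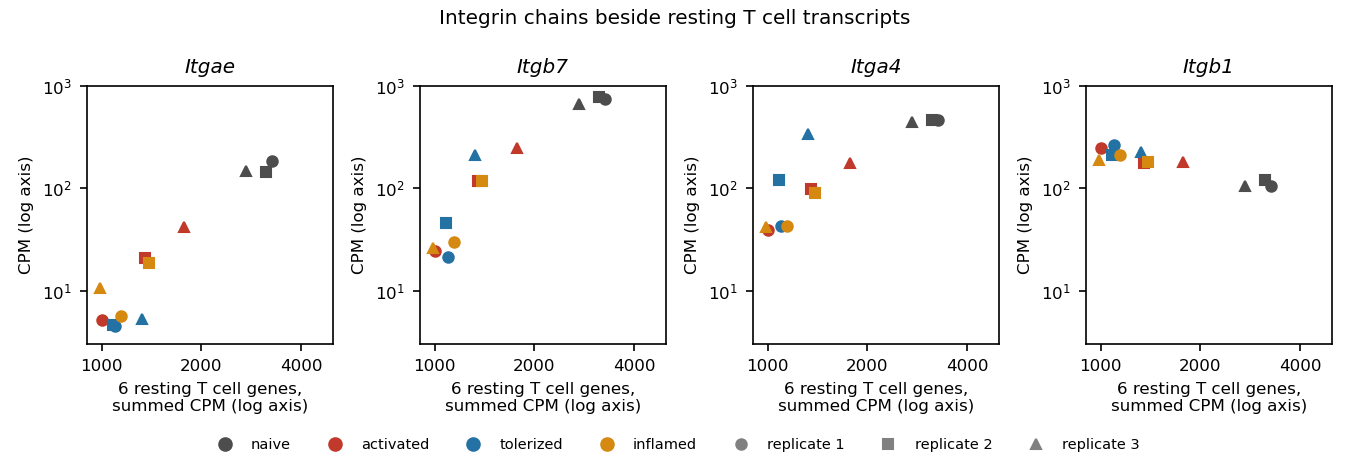
CPM of Itgae, Itgb7, Itga4 and Itgb1 against the summed CPM of 6 resting T cell genes, both on log axes; each point is 1 of the 12 libraries. The naive libraries have the most resting transcripts and the most Itgb7 and Itga4, tolerized 3 has 1323 CPM of resting transcripts with 5.33 CPM of Itgae, and Itgb1 is lowest in the naive libraries.

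Itgb1 (chromosome 8, 128685654-128733579), the partner of Itga4 in VLA-4 and of Itga6, moved the other way. It was 105, 119 and 105 CPM in naive cells, 249, 175 and 182 CPM in activated, 264, 210 and 226 CPM in tolerized and 213, 181 and 190 CPM in inflamed cells. All 9 antigen-exposed libraries lay above the naive ones, and those of a group were within 1.42-fold of each other. Itgb1 rose by 0.86 ± 0.14 (SE, log2) in activated cells (limma, adjusted p = 0.00028), 1.08 ± 0.14 in tolerized cells (adjusted p = 4.76e-05) and 0.82 ± 0.14 in inflamed cells (adjusted p = 0.000324). These calls held under every alternative tried.

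Itgav (chromosome 2, 83722303-83806917), which pairs with Itgb1, Itgb3 and other beta chains, rose in activated and tolerized cells and was not called in inflamed cells. Its level was 39.6, 40.3 and 33.6 CPM in naive cells, 59.6, 57.3 and 54.6 CPM in activated cells, 64.7, 55.7 and 47.1 CPM in tolerized cells, and 31.4, 37.2 and 42.4 CPM in inflamed cells. Activated and tolerized libraries lay above all naive and inflamed libraries, and the inflamed overlapped the naive. Itgav rose by 0.59 ± 0.14 (SE, log2) in activated cells (limma, adjusted p = 0.00302) and by 0.54 ± 0.14 in tolerized cells (adjusted p = 0.00432, and 0.0966 with library size scaling). In inflamed cells the change was -0.04 with a 95% interval of -0.34 to 0.27 (adjusted p = 0.819), and with library size scaling it was -0.36 (adjusted p = 0.0205). Annotated exons of Itgav share 634 bases with exons of Gm13684 on the opposite strand, which is not among the genes counted. Reads there cannot be told apart either.

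Itgal (chromosome 7, 127296139-127335137), the LFA-1 alpha chain, was 555, 565 and 479 CPM in naive cells, 547, 614 and 591 CPM in activated, 592, 666 and 763 CPM in tolerized and 533, 539 and 606 CPM in inflamed cells. Tolerized libraries were the only ones of which none fell into the naive range. Itgal rose in tolerized cells by 0.33 ± 0.11 (SE, log2; limma, adjusted p = 0.0173), a call that was lost without naive 3 (0.26, adjusted p = 0.07), without tolerized 3 (0.24, adjusted p = 0.069) and with library size scaling (0.02, adjusted p = 0.877). The differences in activated cells, 0.13 with a 95% interval of -0.11 to 0.37, and in inflamed cells, 0.07 with an interval of -0.17 to 0.31, were not called (adjusted p = 0.287 and 0.577). With library size scaling these were -0.14 and -0.26.

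Itgb2 (chromosome 10, 77530329-77565708), the beta chain of LFA-1 and of myeloid integrins, was 413, 460 and 394 CPM in naive cells, 314, 310 and 346 CPM in activated, 303, 336 and 446 CPM in tolerized and 413, 329 and 297 CPM in inflamed cells. The activated libraries lay below the naive ones, and the tolerized and inflamed groups each had 1 library within the naive range. Itgb2 fell in activated cells, with a change of -0.38 ± 0.15 (SE, log2; limma, adjusted p = 0.0422), but this call was lost in 11 of 23 alternatives, among them the fits without naive 1, naive 2, naive 3, activated 1, activated 2, tolerized 2, inflamed 2 and inflamed 3, with adjusted p of up to 0.131. In tolerized cells the difference was -0.24, with a 95% interval of -0.58 to 0.10 (adjusted p = 0.175), and in inflamed cells it was -0.30, with an interval of -0.63 to 0.04 (adjusted p = 0.102). Without tolerized 3 the difference in tolerized cells was -0.40 (adjusted p = 0.0219), and without inflamed 1 that in inflamed cells was -0.42 (adjusted p = 0.0323).

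**Figure D3:**
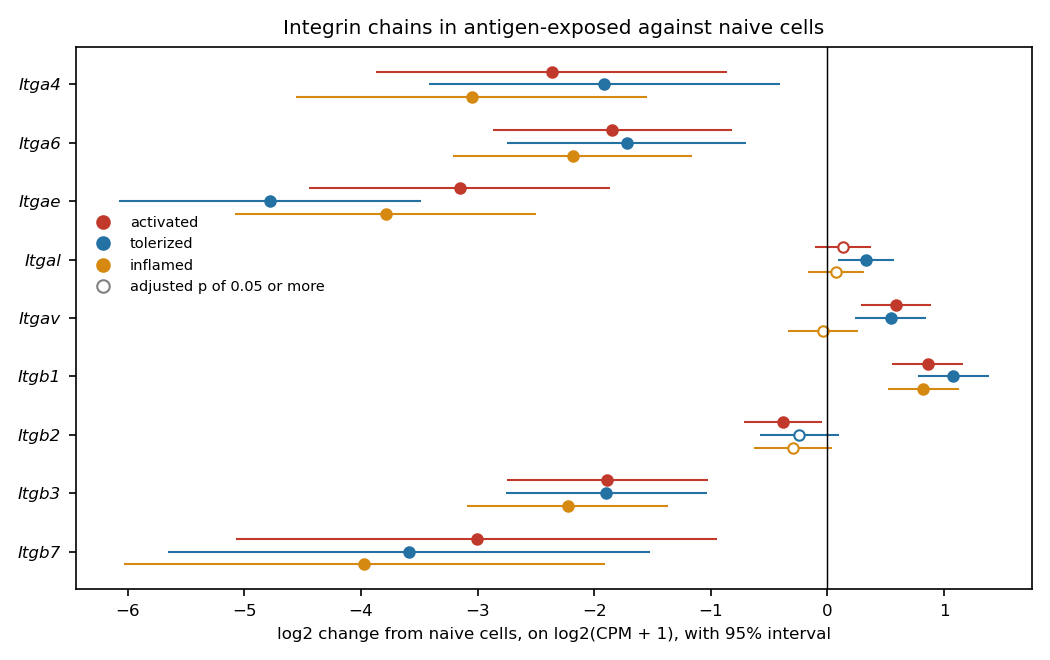
Difference from naive cells of each integrin chain in activated, tolerized and inflamed cells, on log2(CPM + 1), with 95% intervals from limma; filled points had an adjusted p under 0.05. The intervals of Itga4, Itga6, Itgae, Itgb3 and Itgb7 lie below 0 in all 3 groups and those of Itgb1 above 0, while Itgav is at -0.04 in inflamed cells.

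Between the 3 antigen-exposed groups 1 member difference was called. Between tolerized and activated cells, which differ by anti-CD154, limma called 0 of 9 members and 0% of all genes. At an unadjusted p under 0.05 there were 531 genes, 1 member among them, and limma-voom also called 0. Without tolerized 1, limma called 60 genes, 59 of them higher in tolerized cells, and 0 members. That member was Itgae, with 22.5 ± 18.2 CPM (SD, n = 3) in activated and 4.80 ± 0.46 CPM in tolerized cells, a difference of -1.63 ± 0.58 (SE, log2) with a 95% interval of -2.92 to -0.33 (limma, adjusted p = 1). Activated 1, at 5.11 CPM, lay within the tolerized range, so the groups overlapped. For Itgb7 the interval ran from -2.64 to 1.48 and for Itga4 from -1.05 to 1.95, both of which include 0. For Itgb1 it ran from -0.09 to 0.52, and for Itgal from -0.04 to 0.44.

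Between inflamed and tolerized cells, which differ by LPS, 0 of 9 members were called, against 2.78% of all genes, 1.66% higher and 1.12% lower. The count over all genes, 348 with 208 higher and 140 lower, was 540 without tolerized 1, with 204 higher and 336 lower, and fell to 157 without tolerized 2, 179 without inflamed 1 and 174 without inflamed 2. Itgav came nearest, with a difference of -0.58 ± 0.14 (SE, log2; 95% interval -0.88 to -0.28, limma, adjusted p = 0.0523), with no overlap between 31.4 to 42.4 CPM in inflamed and 47.1 to 64.7 CPM in tolerized libraries. It was called without tolerized 3 (adjusted p = 0.027) and without inflamed 3 (adjusted p = 0.03). Itgal was the other member with an unadjusted p under 0.05, at -0.26 ± 0.11 (limma, adjusted p = 0.287), and limma-voom called 0 members. Itgae, at 11.7 ± 6.58 CPM (SD, n = 3) in inflamed cells, was above all 3 tolerized libraries, with a difference of 0.99 ± 0.58 (SE, log2) and a 95% interval of -0.30 to 2.29 (limma, adjusted p = 0.514).

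Between inflamed and activated cells 1 of 9 members was called, Itgav, against 1.92% of all genes, 1.54% higher and 0.384% lower. The count over all genes was 240, and 107 without activated 2, 125 without inflamed 1 and 121 without inflamed 2. The difference of Itgav was -0.62 ± 0.14 (SE, log2; limma, adjusted p = 0.0475), and its libraries did not overlap. The call was close to the threshold and was lost in 16 of 24 alternatives. With the replicate number as a block the adjusted p was 0.0844, and with the block in these 2 groups alone it was 0.199. It was also lost without any 1 of naive 1 to 3, activated 1 to 3, tolerized 2, inflamed 1 and inflamed 2, with changes of -0.53 to -0.66 and adjusted p of 0.0537 to 0.177. The difference itself was -0.49 to -0.74 in all alternatives. Macrophages also express Itgav, and their markers summed to 715, 178 and 62.9 CPM in activated and 599, 207 and 18.6 CPM in inflamed libraries, in replicate order. Inflamed 1, with the most, had 31.4 CPM of Itgav, and inflamed 3, with the least, had 42.4 CPM. The order was the reverse in the activated group, where activated 1, with the most, had 59.6 CPM and activated 3, with the least, had 54.6 CPM. Without activated 1 and inflamed 1, the libraries with the most macrophage transcripts in their groups, the difference was -0.49 (limma, adjusted p = 0.314), and the part of macrophages was not tested.

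Because the chains work in pairs, levels per kilobase of exon were also compared between partners within each library. Per kilobase, naive cells held 272 ± 21.5 CPM of Itgb7 (SD, n = 3), 148 ± 12.0 of Itgb2, 102 ± 9.05 of Itgal, 46.6 ± 1.56 of Itga4, 41.4 ± 5.69 of Itgae, 26.2 ± 1.98 of Itgb1, 13.9 ± 1.34 of Itga6, 5.36 ± 0.52 of Itgav and 2.18 ± 0.14 of Itgb3. Only the neighbours Itga4 and Itgae overlapped between libraries in this order. In activated cells Itgb2, at 113 ± 6.78, and Itgal, at 112 ± 6.50, came first and overlapped. Itgb7 there, at 48.3 ± 41.5, could not be told from Itgb1, at 48.2 ± 9.73.

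Itgb7 and Itgb1 are alternative partners of Itga4, and the ratio between them was lower in all 9 antigen-exposed libraries than in naive ones. Per kilobase there was 9.93 to 11.2 times as much Itgb7 as Itgb1 transcript in naive libraries. The ratio was 0.154, 1.05 and 2.12 in activated libraries, 0.127, 0.341 and 1.47 in tolerized libraries and 0.219, 1.03 and 0.215 in inflamed libraries. The 9 antigen-exposed libraries lay on both sides of equality. Itga4 exceeded Itgb1 by 1.66-fold to 1.91-fold in naive libraries and was 0.0677 to 0.636 times Itgb1 in the other 9. Itga6 was 0.495 to 0.581 times Itgb1 in naive libraries and 0.0338 to 0.158 times in the others.

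The ratios of Itga4 and of Itgae to their shared partner Itgb7 did not follow each other. Itga4 was 0.163 to 0.181 times Itgb7 in naive, 0.194 to 0.439 times in activated, 0.434 to 0.714 times in tolerized and 0.206 to 0.438 times in inflamed libraries, higher than naive in all 9. Itgae was 0.131 to 0.172 times Itgb7 in naive and 0.118 to 0.145 times in activated libraries, so these chains fell by about the same factor there. In tolerized libraries 1 to 3 the ratio was 0.146, 0.07002 and 0.0176, and in inflamed libraries 0.132, 0.110 and 0.285. Tolerized 3 had the lowest ratio of Itgae to Itgb7 of all 12 libraries and inflamed 3 the highest. In tolerized 3 the Itga4 to Itgb1 ratio of 0.636 was in turn the highest among antigen-exposed libraries.

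**Figure D4:**
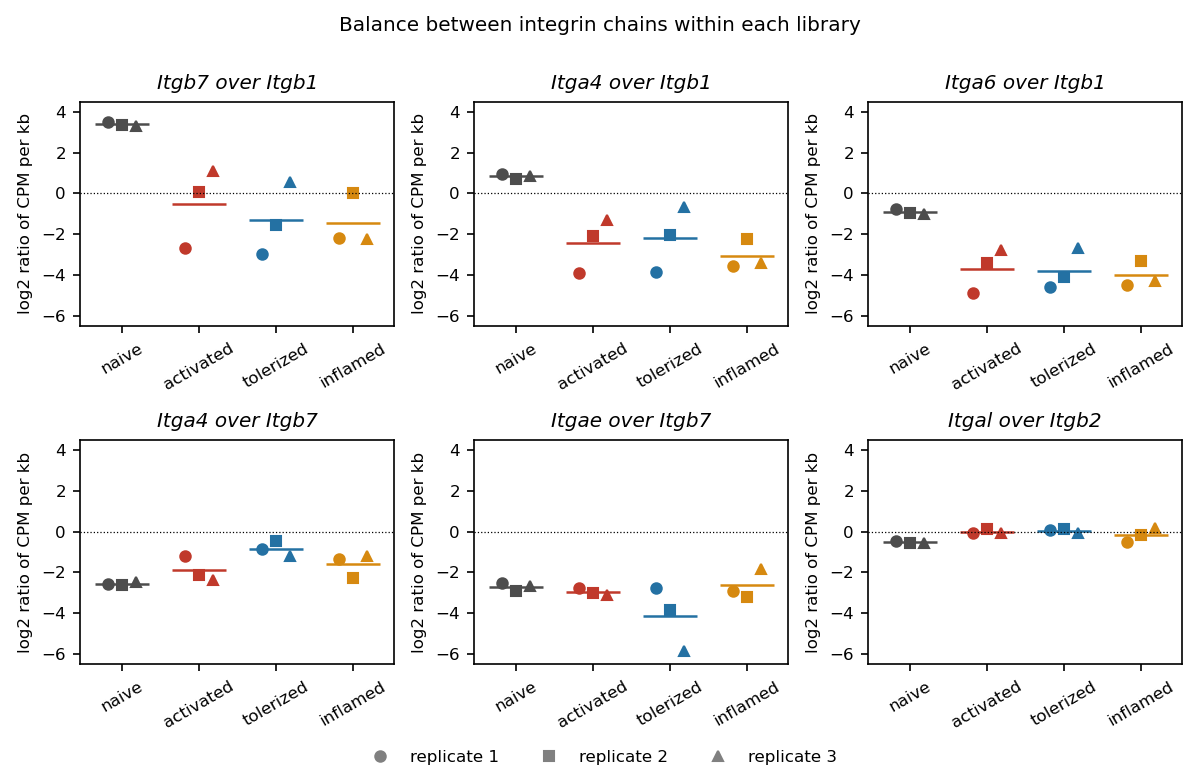
log2 ratio of CPM per kilobase between partner or competing integrin chains in each library; points are libraries with shape by replicate number, lines are group means and the dotted line is equality. Itgb7 over Itgb1 and Itga4 over Itgb1 drop in all 9 antigen-exposed libraries, while Itgae over Itgb7 stays near the naive level except in tolerized 2 and 3 and in inflamed 3.

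The ratio of the LFA-1 chains was nearer to equality in activated and tolerized than in naive libraries. Itgal was 0.666 to 0.737 times Itgb2 in naive, 0.937 to 1.08 times in activated, 0.937 to 1.09 times in tolerized and 0.707 to 1.12 times in inflamed libraries, where inflamed 1 alone was within the naive range. Itgb2 is also a chain of myeloid integrins. Macrophage markers summed to 599 CPM in inflamed 1 and to 715 CPM in activated 1, where the ratio was 0.954. Neutrophil markers summed to 193, 87.1 and 10.6 CPM in inflamed 1 to 3 and to 11.6 CPM in activated 1. The part of myeloid cells in this ratio was not tested. The ratio of Itgav to Itgb3 was 2.35 to 2.57 in naive libraries and 6.77 to 41.1 in the others.

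As a share of the 4 beta chains per kilobase, Itgb7 made up 60.8% ± 1.07 (SD, n = 3) in naive, 21.2% ± 15.4 in activated, 13.7% ± 12.0 in tolerized and 11.1% ± 9.31 in inflamed cells. Itgb1 made up 5.84% ± 0.26 in naive and 23.9% ± 8.44, 27.1% ± 8.46 and 24.8% ± 3.59 in the antigen-exposed groups, in the same order. Among the 5 alpha chains Itgal went from 48.7% ± 1.65 in naive to 80.2% ± 7.18, 81.6% ± 6.62 and 86.2% ± 4.25. Itgae had 19.8% ± 1.95 of the naive alpha chains and 3.93% ± 2.92, 0.80% ± 0.10 and 2.42% ± 1.30 of the others. The sum of the beta chains was 413 to 481 CPM per kilobase in naive and 159 to 290 in the other libraries, and that of the alpha chains 192 to 222 and 115 to 197, so a share can rise where a level does not. The single overlap was the alpha sum of tolerized 3.

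**Figure D5:**
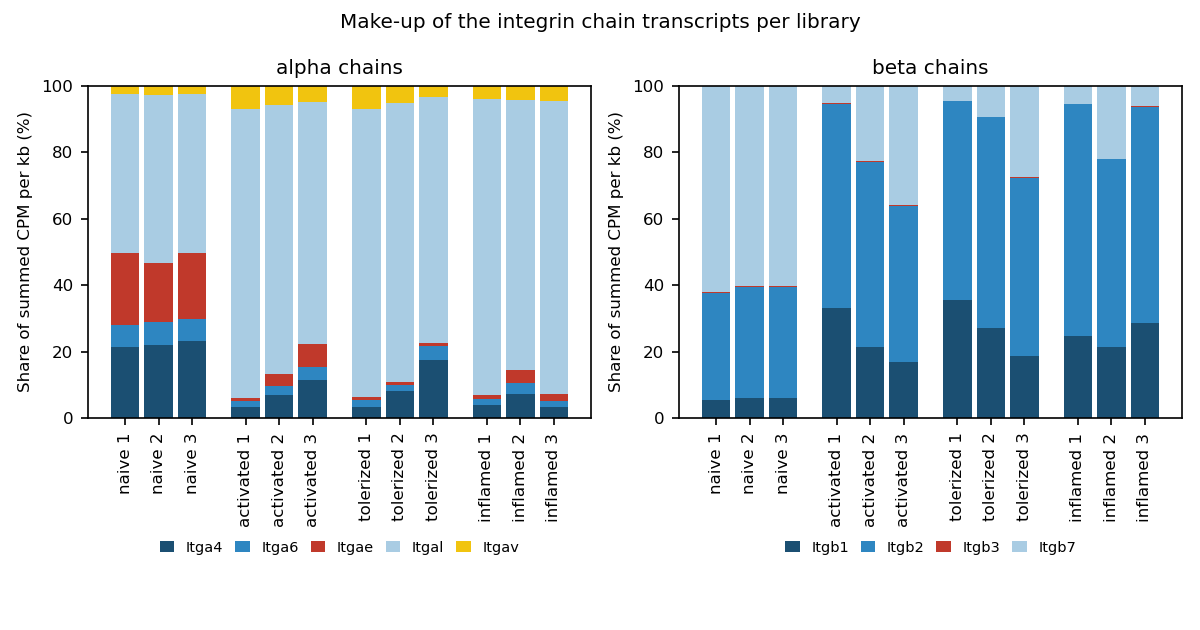
Share in percent of each alpha chain (left) and beta chain (right) in the summed CPM per kilobase of its kind, for each of the 12 libraries. Itgb7 holds 60.1% to 62.0% of the naive beta chains and 4.52% to 35.8% in the antigen-exposed libraries, and Itgal is the largest alpha chain in every library.

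The 17 other integrin chain genes of the mouse were mostly scarce, and 7 of them had a mean of at least 5 CPM in a group. Itga3, the alpha chain of another laminin receptor, rose from 1.68 ± 0.23 CPM (SD, n = 3) in naive cells to 7.13 ± 2.99, 7.73 ± 1.15 and 7.69 ± 0.56 CPM in activated, tolerized and inflamed cells (log2 changes of 1.54, 1.70 and 1.70, limma, adjusted p = 0.00015, 6.31e-05 and 6.29e-05). Itgb5 fell from 28.7 ± 11.8 CPM to 3.27 ± 3.25, 1.13 ± 0.66 and 1.41 ± 0.97 CPM (adjusted p = 0.000757, 0.000139 and 0.000178). Itgad, a myeloid chain known from splenic macrophages, fell from 162 ± 72.2 CPM to 21.3 ± 19.5, 10.1 ± 2.10 and 7.44 ± 6.62 CPM (adjusted p = 0.00866, 0.00303 and 0.000684), and Itga9 from 34.5 ± 15.3 CPM to 7.58 ± 8.30, 3.77 ± 0.91 and 7.43 ± 8.78 CPM (adjusted p = 0.0338, 0.0165 and 0.0203). Within naive cells Itgad was 80.0, 193 and 214 CPM where the macrophage markers summed to 791, 1902 and 1985 CPM. Itgax, a dendritic and myeloid chain, was 35.9 CPM in tolerized 3 and 0.397 to 8.07 CPM in the other 8 antigen-exposed libraries, and was called lower in activated and inflamed cells (adjusted p = 0.041 and 0.0162). Itgam, the chain of Mac-1, was called in no comparison and reached 49.996 CPM in inflamed 1, where neutrophil markers summed to 193 CPM. Itga10 was 3.60 to 5.25 CPM in group means and not called. The part of myeloid cells in these differences was not tested. Of 13 other chains tested 1 rose in each comparison with naive, and 8, 7 and 8 fell in activated, tolerized and inflamed cells, with medians of -0.95, -0.98 and -1.06, where 35.3%, 35.9% and 35.5% of all genes were called lower and 35.3%, 37.4% and 36.9% higher. The smallest adjusted p beside Itga3 belonged to Itga1 and Itga7, at 1.38 and 1.35 CPM in naive cells and 0.0745 to 0.283 CPM in the means of the other groups.

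Beside the counts of other gene lists below stand the shares of all tested genes called against naive in activated, tolerized and inflamed cells, 35.3%, 35.9% and 35.5% lower and 35.3%, 37.4% and 36.9% higher. No test set any of these lists against the other genes, and list counts are descriptions. Among genes that switch integrins to their active form, of 13 activators, 7 fell and 2 rose in activated, 8 fell and 2 rose in tolerized, and 9 fell and 2 rose in inflamed cells against naive, with medians of -0.83, -0.77 and -1.10. Tln1, encoding talin, which binds beta tails and opens the receptor, fell from 824 ± 40.7 CPM (SD, n = 3) to 463 ± 45.9, 490 ± 100.2 and 384 ± 32.6 CPM (limma, adjusted p = 0.00031, 0.000474 and 3.62e-05). Rap1a, a small GTPase upstream of talin, rose from 83.3 ± 7.35 CPM to 179 ± 2.10, 197 ± 1.05 and 202 ± 3.62 CPM (adjusted p = 3.74e-07, 1.62e-07 and 1.35e-07). Rasgrp1, an exchange factor of Ras downstream of the T cell receptor, was 228 ± 9.33 CPM in naive, 164 ± 48.8 in activated, 142 ± 38.3 in tolerized and 64.8 ± 11.4 CPM in inflamed cells. It was lower in inflamed cells, with differences of -1.10 ± 0.24 (SE, log2) against tolerized (limma, adjusted p = 0.0346) and -1.30 ± 0.24 against activated cells (adjusted p = 0.0186), the only activator called in either comparison.

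Of 7 genes that restrain integrins, 5, 4 and 5 fell and 1 rose in activated, tolerized and inflamed cells, with medians of -0.70, -0.67 and -0.67, beside 35.3%, 35.9% and 35.5% of all genes lower. Itgb1bp1, which binds the Itgb1 tail, rose from 21.1 ± 0.95 CPM (SD, n = 3) to 35.2 ± 3.88, 38.7 ± 3.30 and 33.5 ± 2.03 CPM, in the same direction as Itgb1 itself (limma, adjusted p = 0.000176, 4.25e-05 and 0.000295). Sharpin, which binds alpha tails, fell from 73.3 ± 2.70 CPM to 46.9 ± 7.01, 46.0 ± 5.77 and 38.7 ± 3.83 CPM (adjusted p = 0.00121, 0.000844 and 0.000103). Flna, encoding filamin, which competes with talin for beta tails, fell from 1320.4 ± 108 CPM to 400 ± 153, 384 ± 186 and 271 ± 94.2 CPM (adjusted p = 0.00135, 0.000855 and 0.000196).

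In the adhesion complex beneath the receptors 4, 3 and 4 of 10 genes fell and 1, 1 and 2 rose, with medians of -0.25, -0.08 and -0.22, beside 70.7%, 73.3% and 72.4% of all genes called in either direction. The actin cross-linkers Actn1 and Actn4 moved in opposite directions: Actn1 fell from 681 ± 33.5 CPM (SD, n = 3) to 197 ± 63.8, 171 ± 59.4 and 137 ± 41.4 CPM, and Actn4 rose from 205 ± 5.68 to 401 ± 58.4, 452 ± 33.4 and 437 ± 30.5 CPM (limma, largest adjusted p = 0.000192, for Actn1 in activated cells). Ilk, an adaptor at beta tails, fell from 119 ± 4.07 to 80.2 ± 8.34, 78.7 ± 10.7 and 68.6 ± 8.40 CPM (limma, adjusted p = 0.00165, 0.00107 and 0.00016).

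Of the integrin ligands, 12 of 15 listed genes were tested in these T cell libraries, and 5, 5 and 4 fell and 0, 0 and 3 rose, with medians of -0.30, -0.36 and -0.08, beside the same 70.7%, 73.3% and 72.4%. Cdh1, the E-cadherin ligand of CD103, was at 0.867 CPM in naive and 0.136 to 0.303 CPM in the other group means, and Icam4 at 0.856 and 0.177 to 0.259 CPM. Both were called lower in all 3 comparisons at these low levels. Thbs1, encoding thrombospondin, a ligand of several integrins, was 12.8, 6.15 and 3.05 CPM in inflamed libraries and 0 to 2.57 CPM in the other 9, and was called higher in inflamed than in tolerized cells (2.43 ± 0.53, SE, log2; limma, adjusted p = 0.0345). Against activated cells its difference of 1.87 ± 0.53 was not called (limma, adjusted p = 0.139). Its order within the inflamed libraries was that of the macrophage sums of 599, 207 and 18.6 CPM and of the neutrophil sums of 193, 87.1 and 10.6 CPM, whose part was not tested.

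TGF-β signalling is known to induce Itgae in T cells, and Itgav receptors can release TGF-β from its latent form. Of 13 pathway genes 8, 8 and 7 fell and 3, 3 and 4 rose against naive, with medians of -0.35, -0.57 and -0.31, where 70.7%, 73.3% and 72.4% of all genes were called in either direction. Smad3, a transducer of the signal, was 31.4 to 33.6 CPM in naive, 26.1 to 39.1 in activated, 28.5 to 58.1 in tolerized and 189 to 207 CPM in inflamed libraries, so the inflamed group stood clear of the others (limma, 2.28 ± 0.21 SE above tolerized, adjusted p = 0.000327, and 2.59 ± 0.21 above activated, adjusted p = 0.000178). Smad7, an inhibitor of the pathway, fell from 111 ± 15.6 CPM (SD, n = 3) to 27.5 ± 9.95, 16.4 ± 3.11 and 21.8 ± 7.39 CPM (limma, adjusted p = 7.63e-05, 7.45e-06 and 2.22e-05). Tgif1, a corepressor, rose from 14.8 ± 3.19 to 54.2 ± 10.8, 53.7 ± 7.50 and 53.8 ± 5.99 CPM (limma, adjusted p = 8.68e-06, 7.58e-06 and 7.50e-06). Besides Smad3, Pmepa1 was higher in inflamed than in tolerized cells, at 24.2 against 9.21 CPM (limma, adjusted p = 0.00155), and Pmepa1 and Runx3 were higher than in activated cells (adjusted p = 0.0402 and 0.0464), genes chosen for mention after their values were seen. Itgae itself was not called between inflamed and tolerized cells.

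The genes whose pattern over the 12 libraries was nearest to a member were found as the smallest root mean square difference, in log2 units after each gene's own mean was removed, among 7949 candidate genes. Nearest to Itgae were Igfbp4 (0.29), Ggt5 (0.41) and Amigo2 (0.42). Igfbp4 was 58.6 to 105 CPM in naive, 2.84, 13.2 and 25.6 CPM in activated and 2.66, 3.01 and 3.67 CPM in tolerized libraries. Nearest to Itgb7 were Rapgef4 (0.18), Col6a4 (0.21) and Ypel3 (0.22), and Rapgef4 was 11.2 CPM in tolerized 3 against 0.912 and 2.10 CPM in tolerized 1 and 2. Igfbp4 and Rapgef4 were picked by likeness over all 12 libraries, so their likeness to the member in tolerized 3 follows from that choice. Itga4 was nearest to Neurl3 (0.19), H2afv (0.19) and Arhgap9 (0.20), Itga6 to Ccdc69 (0.12), Sesn1 (0.15) and Skap1 (0.15), and Itgb3 to Mppe1 (0.10), Sesn1 (0.11) and Frmd8 (0.12). Among the members, the nearest were Itga6 and Itgb3, at 0.15, and the farthest Itgae and Itgb1, at 2.33. Itga4 and its partner Itgb7 differed by 0.71, and Itgal and its partner Itgb2 by 0.27. Alpha chains, which do not pair with each other, were also near, with Itga4 and Itga6 at 0.47 and Itgal and Itgav at 0.28. The measure therefore does not single out partners.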

How the data were processed

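Messenger RNA of 12 libraries of sorted CD8 T cells was sequenced by Illumina HiSeq per the labels; their extraction text speaks of fibroblast cultures, unlike the sorted cells of every other field. The authors deposited 1 table of read counts per gene and library, whole numbers with commas between groups of 3 digits, beside each gene's exon length; the commas keep the column from passing as a plain count, so its unit was recorded as other. The submitters' processing notes name TopHat2, bedtools, DESeq and the builds mm10 and GRCm38, with no version, role or order. Of the deposited values from 1 to 20, 55.6% to 64.4% were even, so a read pair may have entered as 2 counts.

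Commas were removed and counts scaled to CPM by trimmed means of M (trimming 30.0% of M and 5% of A). The filter asked for 0.258 CPM, equal to 10 reads in a library of median size, in at least 3 libraries, and 15 reads in total. limma-trend (limma 3.58.1, R 4.3.3) was fitted to log2(CPM + 1), all 12 libraries and the 4 groups together, two-sided, with Benjamini-Hochberg adjustment over the 12499 tested genes per comparison. The code was first run on simulated counts in which all genes shared the same spread. That run checks the code and not how the fit behaves at the variation of these libraries. Ratios between chains used CPM per kilobase of exon, with no test. Intervals are at 95%.

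The members and all gene lists were chosen with earlier results of these data known. Of 155 listed genes 151 were matched by symbol and 2 by gene identifier; 1 further resting T cell marker of the plan is not reported here. The rule for names was all 9 members, from each pathway list the 3 genes whose adjusted p was lowest in any comparison, every other integrin chain with a group mean of at least 5 CPM, and the 3 nearest patterns for members spanning over 2 log2 units, among genes averaging 10 CPM or more. Coordinates and promoter windows are RefSeq's (GRCm38.p6), exon overlaps GENCODE's (M21, GRCm38). Alternatives changed the scaling (median of ratios, library size), the test (limma-voom), the filter (none, or 5 CPM), the pseudocount (0.1 or 5) or the libraries fitted (the 2 compared groups, or all but 1), or added a replicate block. The labels do not say what a replicate number marks. Same-numbered libraries deviated together, with all correlations over 0.1, only between activated and tolerized (0.19 to 0.60) or inflamed cells (0.15 to 0.64). A pairing by number could thus be read only from these values and not from the labels. Some differently numbered libraries correlated more. Inflamed 2 was at 0.56 with activated 3 and 0.23 with activated 2, and inflamed 3 at 0.25 with activated 2 and 0.15 with activated 3. Activated 2 was at 0.21 with tolerized 3 and 0.19 with tolerized 2. The correlations thus do not single out a pairing by number.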

Additional observations from a re-analysis of the deposited data

How the results depend on the processing

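Differences called neither in the main analysis nor in an alternative were counted as unchanged whatever their sign. Of 23 called member changes 16 stayed called in every alternative and 18 in every fit that left out 1 library, and none changed direction. The count of members called between activated and naive cells was 8 and became 5, with Itga4, Itgb2 and Itgb7 lost, without activated 1 and inflamed 1, the libraries with the most macrophage transcripts in their groups, an alternative chosen after seeing the data, as were the block in 2 groups and the omission of activated 3, tolerized 3 and inflamed 2. Between inflamed and tolerized cells it was 0 and became 1, Itgav, with library size scaling and with the filter at 5 CPM, and 0 to 1 when 1 library was left out. Between inflamed and activated cells it was 1 and became 0 with median-of-ratios scaling, with no filter, with only the 2 groups compared, with the replicate block, with the block in the 2 groups alone and with both multi-library omissions, and 0 to 1 when 1 library was left out; the cause was not tested. The replicate block also ended the call of Itgb2 in activated cells (adjusted p = 0.064), and it changed no other call of a member. Library size scaling moved the median log2 change of all genes to -0.26, -0.25 and -0.27 for activated, tolerized and inflamed against naive, and the share of higher genes among those called to 39.1%, 39.6% and 38.6%, from 49.97%, 51.0% and 51.0%; it made Itgb2 called lower in tolerized cells (-0.55) and inflamed cells (-0.63). Itgb3 had as few as 34 reads in a library, so counting error bears on it most.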
